A study of Mus musculus with 18 samples.

Results

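The genes described here carry glucose into the macrophage, break it down to pyruvate and lactate, and pass lactate out of the cell. They are *Slc2a1*, *Hk2*, *Pfkl*, *Aldoa*, *Pgk1*, *Eno1*, *Pkm*, *Ldha*, *Slc16a3* and *Pdk1*, 10 symbols chosen by name and looked up in the GRCm38 annotation. They matched 11 of the 55385 Ensembl genes in the count table, because the symbol *Aldoa* is held by 2 Ensembl genes on chromosome 7. ENSMUSG00000030695 carries the *Aldoa* counts and is the member described, whereas the other, ENSMUSG00000114515, had 4 to 45 counts per library. All 10 members passed the filter on low counts, at least 10 counts in at least 2 libraries, which left 14979 genes for the tests.

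All 10 are protein-coding genes, and the counts are of reads on their exons. On GRCm38 *Slc2a1* lies at chr4:119108711-119137983 and *Slc16a3* at chr11:120948480-120960868. The enzymes are *Hk2* at chr6:82725025-82774454, *Pfkl* at chr10:77986947-78010083, *Aldoa* at chr7:126795234-126800751, *Pgk1* at chrX:106187100-106203699, *Eno1* at chr4:150236721-150248879, *Pkm* at chr9:59656368-59679375, *Ldha* at chr7:46841475-46855627 and *Pdk1* at chr2:71873224-71903858. *Hk2*, *Pfkl* and *Aldoa* are on the minus strand and the others on the plus strand.

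Glucose enters through facilitative transporters and is trapped by hexokinase, after which phosphofructokinase commits the sugar to glycolysis and aldolase splits it. Phosphoglycerate kinase and pyruvate kinase return ATP, and enolase makes the substrate of the latter. Lactate dehydrogenase A turns pyruvate into lactate while regenerating NAD+, MCT4 (*Slc16a3*) exports the lactate, and pyruvate dehydrogenase kinase 1 (*Pdk1*) holds pyruvate back from mitochondrial oxidation. Many of these genes are known targets of hypoxia-inducible factor (HIF), and alternatively activated macrophages use glycolysis beside mitochondrial respiration.

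Bone marrow-derived macrophages were grown from female C57BL/6J mice aged 12 weeks, with L929 cell supernatant as the source of growth factor, and were harvested on day 7. They received vehicle (Veh, 0.1% DMSO), 250 µM hemicholinium-3 (HC3), which blocks choline uptake, or 5 µM RSM-932a (RSM), which inhibits choline kinase, for 24 h. For a further 24 h the cells either stayed naïve, M[0], or were given IL-4 at 20 ng/mL, M[IL-4], and 3 libraries from 3 individual mice were made for each of the 6 groups. Both inhibitors were used at 1 dose and 1 time, and these doses differ, so HC3 and RSM are compared as used here and not at a matched dose.

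The libraries held 17457796 to 19522255 counts, and none stood apart in depth. The macrophage identity was checked on 10 marker genes, all of which passed the filter, with a summed level of 8211 to 22238 CPM per library (counts relative to the library's size, scaled by edgeR's TMM factors). Markers of other blood cells were low, with sums of at most 2.04 CPM for 11 neutrophil, 27.8 for 6 B cell, 5.92 for 7 T and NK cell, 3.02 for 6 dendritic cell and 0.732 for 6 erythroid genes, and *S100a9* and *Cd3g* had no counts in any library. Stromal cell markers, many of them matrix genes, summed to 849.7 to 4440 CPM. Of these 10 markers 9 passed the filter, with means in Veh M[0] from 8.50 CPM for *Dcn* to 979 CPM for *Fn1*. The other, *Lum*, was at 0 in 5 of the 6 groups.

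The start regions of 4 members are shown because these genes went different ways in the comparisons that follow. *Slc2a1* and *Slc16a3* were raised by both inhibitors in M[0], and *Pdk1* was lowered by HC3. *Ldha* was raised by IL-4 in every treatment, though with RSM that call was lost when any single replicate was left out. Each window runs from 250 bases before to 50 after an annotated RefSeq start (GRCm38.p6), written 5′ to 3′ on the gene's strand. Capitals mark ACGTG or GCGTG on either strand (CACGT or CACGC when read here), the core letters of the HIF response element, and in *Ldha* also CACGTG, the E-box that contains ACGTG on both strands.
Slc2a1 (chr4:119108495-119108794, + strand): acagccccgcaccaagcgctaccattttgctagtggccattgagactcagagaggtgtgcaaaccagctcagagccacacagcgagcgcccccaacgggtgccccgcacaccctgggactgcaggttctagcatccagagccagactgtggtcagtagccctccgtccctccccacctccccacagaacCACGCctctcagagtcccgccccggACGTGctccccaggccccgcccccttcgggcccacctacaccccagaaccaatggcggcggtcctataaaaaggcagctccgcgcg
Slc16a3 (chr11:120948817-120949116, + strand): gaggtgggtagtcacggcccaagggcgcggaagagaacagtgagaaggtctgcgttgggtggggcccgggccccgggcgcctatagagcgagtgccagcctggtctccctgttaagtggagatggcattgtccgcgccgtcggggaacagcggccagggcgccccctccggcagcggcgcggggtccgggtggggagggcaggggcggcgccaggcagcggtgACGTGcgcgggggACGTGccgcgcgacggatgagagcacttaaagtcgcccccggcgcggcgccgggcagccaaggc
Ldha (chr7:46845554-46845853, + strand): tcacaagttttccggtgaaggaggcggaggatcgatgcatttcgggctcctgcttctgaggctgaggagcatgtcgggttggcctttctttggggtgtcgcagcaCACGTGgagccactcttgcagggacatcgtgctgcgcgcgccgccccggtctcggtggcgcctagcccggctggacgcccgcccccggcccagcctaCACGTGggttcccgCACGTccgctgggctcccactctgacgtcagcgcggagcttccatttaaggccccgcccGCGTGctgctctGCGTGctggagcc
Pdk1 (chr2:71872974-71873273, + strand): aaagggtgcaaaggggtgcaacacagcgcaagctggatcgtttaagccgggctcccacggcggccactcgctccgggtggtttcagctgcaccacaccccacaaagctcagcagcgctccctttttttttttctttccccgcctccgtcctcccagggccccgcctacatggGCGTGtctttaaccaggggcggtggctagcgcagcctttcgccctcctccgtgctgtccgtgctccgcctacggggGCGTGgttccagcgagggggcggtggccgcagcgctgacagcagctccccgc

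The *Ldha* window held 7 matches, counting each CACGTG on both strands, and the other 3 windows held 2 each. RefSeq lists 17 start windows for the 10 members, and 14 of them (82.4%) held at least 1 match, against 60.5% of 13463 windows of tested genes and 43.8% of all 32851 windows. The members' windows were also richer in G and C, with a median of 65.7% against 60.3% and 52.7%. ACGTG alone was in 47.1% of the members' windows and 24.9% of those of tested genes, and GCGTG in 47.1% and 49.0%. The *Pkm* and *Pdk1* genes have a further window without a match, and so has *Aldoa*. Windows of 1 gene can overlap, as for *Eno1* and *Aldoa*, and a match they share is then counted in each. These are matches of letters, and they were not measured as bound sites.

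In naïve vehicle-treated cells, *Aldoa*, *Pkm*, *Ldha*, *Pgk1* and *Eno1* were far more abundant than the other members, compared here per length of merged exons. Merged exons can be much longer than the longest coding transcript, as for *Eno1* (5379 against 2027 bp) and *Pkm* (5001 against 2432 bp). The order of single members given next therefore rests on this length. *Aldoa* (374 ± 24.3 CPM per kb, SD, n = 3 libraries) and *Pkm* (363 CPM per kb) led and overlapped, followed by *Ldha* at 166, *Pgk1* at 145 and *Eno1* at 120 CPM per kb. The remaining members lay far lower, although at the hexokinase step *Hk3*, which is not a member, averaged 83.2 CPM per kb. *Slc2a1* (12.6), *Pfkl* (10.5), *Slc16a3* (9.21) and *Pdk1* (8.88 CPM per kb) each overlapped the next in that order, and *Hk2* was lowest at 6.10 CPM per kb. Together the members took 0.467% ± 0.0256 of all counts in Veh M[0] and 0.849% ± 0.00967 in RSM M[0]. The share was 0.568% ± 0.0334 in HC3 M[0], and in M[IL-4] it was 0.551% ± 0.0239 for Veh, 0.508% ± 0.0312 for HC3 and 0.660% ± 0.0143 for RSM.

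**Figure D1:**
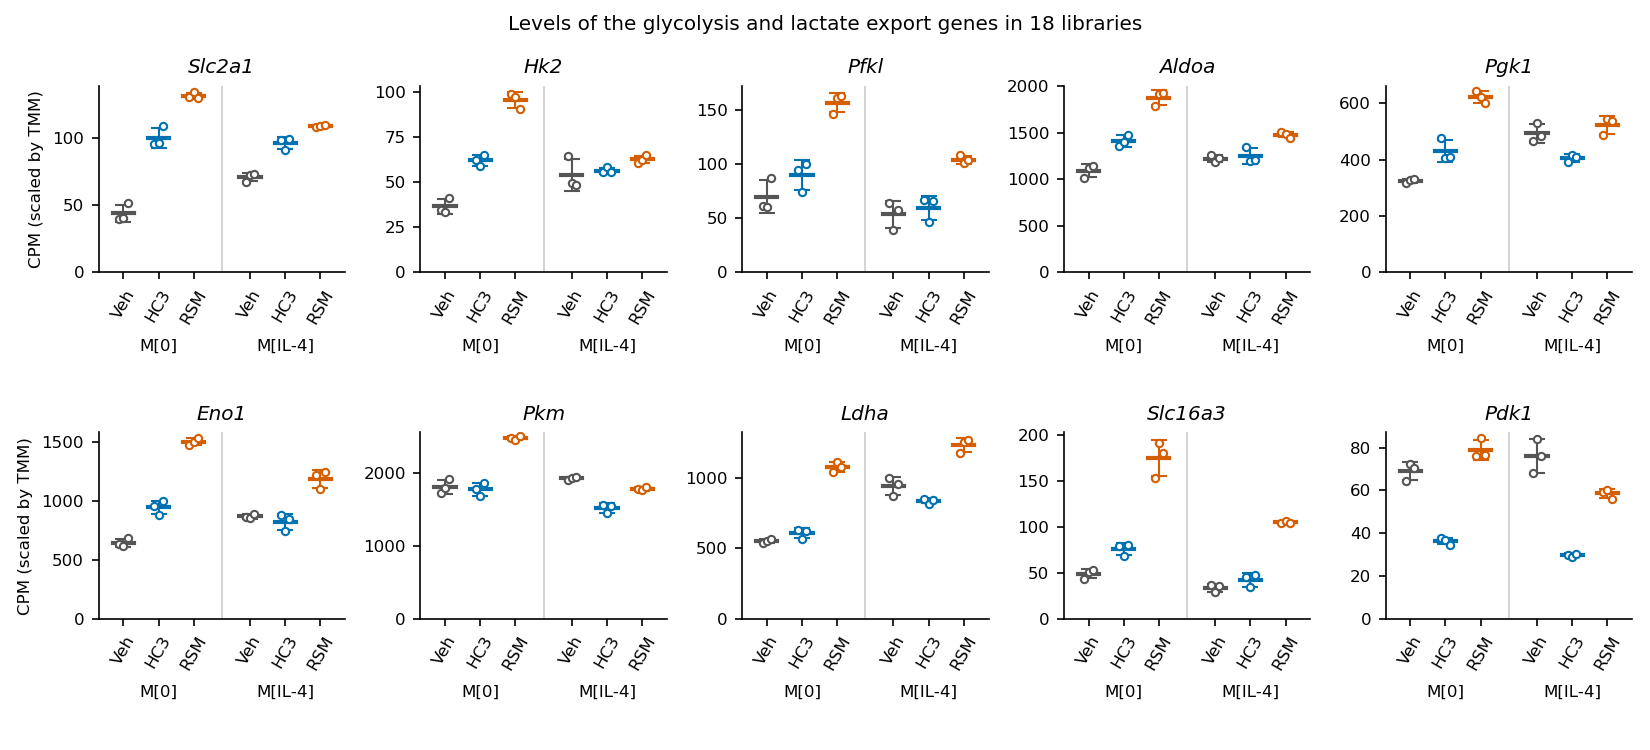
Level of each member in CPM (linear axes from 0, scaled by TMM) in the 6 groups, where open circles are libraries, wide bars the mean and thin bars the SD (n = 3). RSM M[0] holds the highest mean of 9 members, *Pdk1* is lowest in both HC3 groups, and *Ldha* is highest in RSM M[IL-4] (1173 to 1268 CPM).

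The first question was whether blocking choline uptake or choline kinase changes these genes in naïve cells. RSM raised all 10 members, by a median log2 fold change of 1.07 where the median of all genes was 0.01, and HC3 raised 6 of them and lowered *Pdk1*, with a median of 0.39 against 0.02. Rose and fell mean here an FDR under 0.05 in edgeR's quasi-likelihood test with Benjamini-Hochberg adjustment over all 14979 genes. At that threshold 20.5% of all tested genes rose with RSM and 20.7% fell, and 22.6% rose and 21.5% fell with HC3. With the further demand of a log2 fold change of at least 1, 5 members rose with RSM where 5.05% of all genes did (6.51% fell), and 1 with HC3 where 5.93% did (6.11% fell). Libraries did not overlap vehicle for 10 members with RSM, all higher (25.8% of all genes higher, 25.7% lower), and for 7 higher and 1 lower with HC3 (26.6% and 25.6% of all genes). The RNA is bulk, so fewer cells of a type and less RNA per cell cannot be told apart, and both comparisons share the same vehicle libraries.

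With RSM the transporters rose most. *Slc2a1* encodes GLUT1, the main glucose transporter of activated macrophages. Its libraries read 40.1, 40.6 and 51.6 CPM in Veh M[0], 95.7, 96.4 and 109 CPM with HC3, and 131, 134 and 130.2 CPM with RSM. The 3 groups did not overlap, and the log2 fold change was 1.19 (SE 0.08, FDR = 1.04e-09) for HC3 and 1.58 (SE 0.08, FDR = 2.31e-11) for RSM. *Slc16a3*, the lactate exporter, stood at 43.3, 50.4 and 53.3 CPM in Veh M[0], at 78.8, 67.7 and 80.5 CPM with HC3, and at 152, 191 and 179.7 CPM with RSM. It rose 1.54-fold with HC3 (log2 fold change 0.63, SE 0.12, FDR = 0.000305) and 3.56-fold with RSM (1.83, SE 0.12, FDR = 5.88e-10), the largest rise of any member with RSM.

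*Hk2*, the inducible hexokinase, rose 1.70-fold with HC3 (log2 fold change 0.77, SE 0.09, FDR = 2.46e-06) and 2.62-fold with RSM (1.39, SE 0.09, FDR = 9.81e-10). Its libraries were at 34.7, 33.5 and 41.1 CPM in Veh M[0], 62.3, 58.8 and 65.0 CPM with HC3 and 98.6, 97.1 and 90.5 CPM with RSM, with no overlap. *Pfkl*, the liver-type phosphofructokinase, rose 2.25-fold with RSM (1.17, SE 0.17, FDR = 1.49e-05). With HC3 its change of 0.36 (SE 0.17) did not pass (FDR = 0.0903), and the libraries overlapped, at 61.8, 60.4 and 87.6 CPM in Veh and 94.6, 74.1 and 101 CPM with HC3. When same-numbered libraries of 1 polarization were treated as pairs, it passed (FDR = 0.00227), as it did without the count filter or without replicate 2.

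The abundant enzymes of the lower pathway followed with smaller changes under HC3. *Eno1*, the main enolase, rose 2.33-fold with RSM (log2 fold change 1.22, SE 0.07) and 1.46-fold with HC3 (0.55, SE 0.07), from 621 to 685 CPM in Veh M[0] to 881 to 997 CPM with HC3 and 1478 to 1536 CPM with RSM. *Pgk1* rose 1.92-fold with RSM (0.94, SE 0.07) and 1.32-fold with HC3 (0.40, SE 0.07), and *Aldoa* rose 1.72-fold (0.78, SE 0.06) and 1.30-fold (0.37, SE 0.06). None of these groups overlapped their vehicle libraries.

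*Ldha* and *Pkm*, like *Pfkl*, passed with RSM and not with HC3. The inhibitors are compared directly further below, where all 10 members differed in M[0]. *Ldha* libraries read 534, 552 and 564 CPM in Veh M[0], 629, 568 and 624 CPM with HC3 and 1042, 1112 and 1074 CPM with RSM. With RSM the gene rose 1.96-fold (log2 fold change 0.97, SE 0.06, FDR = 2.98e-10), whereas with HC3 its change of 0.14 (SE 0.06) did not pass (FDR = 0.0622), although it did with same-numbered pairs (FDR = 0.0178) and with library size only (FDR = 0.0281). *Pkm* rose 1.37-fold with RSM (0.45, SE 0.06, FDR = 2.26e-06) and measured -0.03 with HC3 (SE 0.06, FDR = 0.698), a value of 0.01 when libraries were scaled by size only. Its counts add both splice forms of pyruvate kinase.

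*Pdk1* went the other way with HC3. Its libraries lay at 64.3, 72.4 and 70.7 CPM in Veh M[0], at 37.6, 37.0 and 34.7 CPM with HC3 and at 76.2, 84.4 and 76.6 CPM with RSM. The fall with HC3 was 1.90-fold (log2 fold change -0.92, SE 0.08, FDR = 1.04e-08) and reached -1.01 without replicate 1. The rise with RSM was 1.14-fold (0.19, SE 0.07, FDR = 0.0407), and it no longer passed when any 1 replicate was left out (FDR = 0.129, 0.135 and 0.141) or without the count filter (FDR = 0.107).

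**Figure D2:**
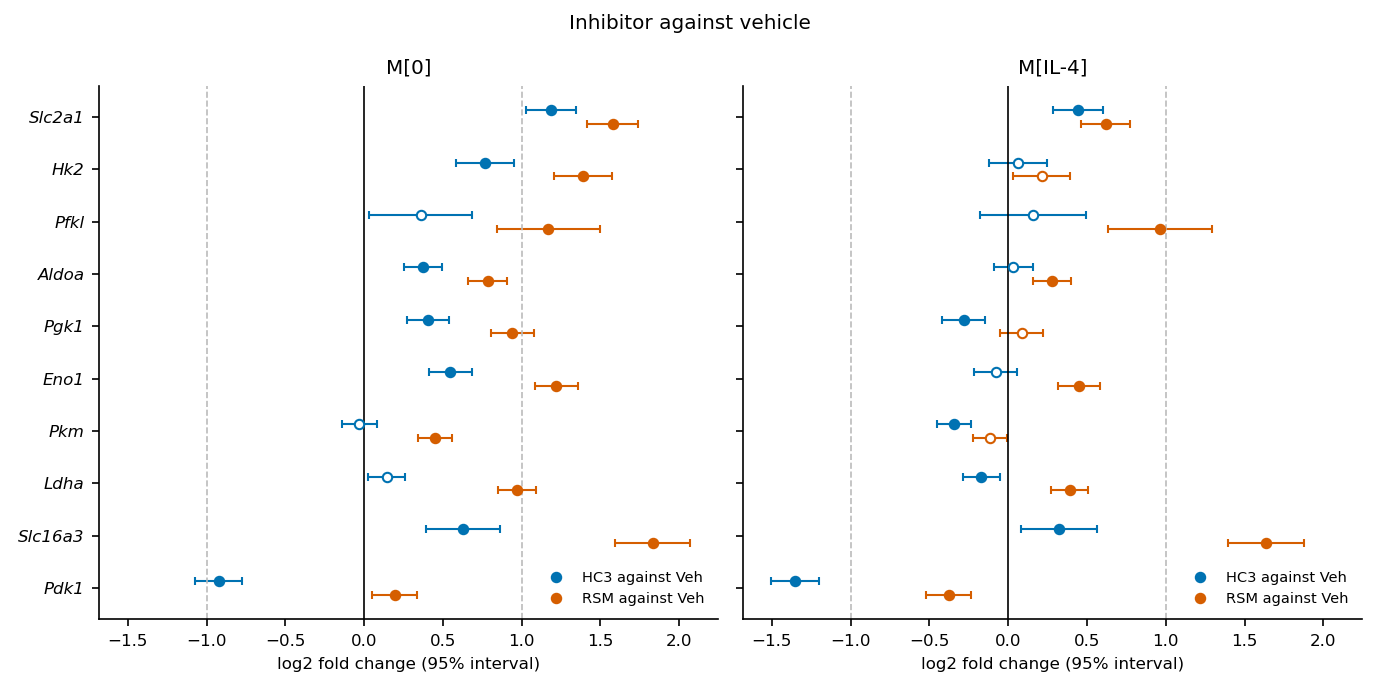
Log2 fold change of each member with HC3 (blue) or RSM (orange) against vehicle in M[0] and M[IL-4], with bars for the 95% interval and filled points for FDR under 0.05. In M[0] all RSM points lie to the right of 0, up to 1.83 for *Slc16a3*, and in M[IL-4] most points lie closer to 0 while *Pdk1* with HC3 reaches -1.35.

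Levels of other cells' genes and of macrophage markers moved with the same groups. The sum of the 10 macrophage markers was 21259 to 22238 CPM in Veh M[0], 9281 to 10282 CPM with HC3 and 16369 to 17700 CPM with RSM. Of the 10, 7 were at least 2-fold lower (FDR under 0.05) with HC3 and 3 with RSM, where 6.11% and 6.51% of all genes were. The stromal sum was 1507 to 2623 CPM in Veh M[0], 3217 to 4440 CPM with HC3 and 2256 to 3243 CPM with RSM. Of the 9 tested stromal markers, 3 were at least 2-fold higher with HC3 (5.93% of all genes) and 0 lower. With RSM 2 were higher (5.05% of all genes) and 1 lower. The mean of *Dcn* was 8.50 CPM in Veh M[0] and 2.99 CPM with RSM. The B cell sum was 21.3 to 27.8 CPM in Veh M[0] and at most 2.68 CPM with either inhibitor. Transcripts of the mitochondrial chromosome took 1.83% ± 0.182 of counts in Veh M[0], 3.12% ± 0.526 with HC3 and 0.772% ± 0.0557 with RSM. The part of these shifts in the members' values was not tested.

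The same comparison was made in IL-4-polarized cells, where fewer members rose. RSM raised 6 members and lowered *Pdk1*, with a median log2 fold change of 0.33, whereas HC3 raised 2 and lowered 4, with a median of -0.02. Among all tested genes 20.1% rose and 18.5% fell with RSM, and 18.9% rose and 19.9% fell with HC3. With the demand of a 2-fold change, *Slc16a3* alone rose with RSM (5.05% of all genes) and *Pdk1* alone fell with HC3 (5.53% of all genes), where 4.72% of all genes rose with HC3 and 6.0% fell with RSM. Libraries did not overlap vehicle for 6 members higher and 2 lower with RSM (23.7% and 22.9% of all genes), and for 1 higher and 4 lower with HC3 (22.2% and 23.7%).

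*Slc16a3* kept its response to RSM. Its libraries were at 37.1, 28.7 and 35.4 CPM in Veh M[IL-4], 45.1, 33.97 and 47.5 CPM with HC3 and 105, 106 and 104 CPM with RSM, so that only the RSM group stood clear of vehicle. The rise was 3.11-fold with RSM (log2 fold change 1.64, SE 0.12, FDR = 4.05e-09) and 1.25-fold with HC3 (0.32, SE 0.12, FDR = 0.0472). The latter did not pass without replicate 1 (FDR = 0.101) or replicate 3 (FDR = 0.3), nor in a fit of only the compared groups (FDR = 0.0903) or with RLE factors (FDR = 0.0551).

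*Slc2a1* rose with both inhibitors, from 67.4, 72.6 and 73.1 CPM in Veh M[IL-4] to 99.1, 91.1 and 99.4 CPM with HC3 (log2 fold change 0.44, SE 0.08, FDR = 0.000211) and 108, 109 and 109.8 CPM with RSM (0.62, SE 0.08, FDR = 4.58e-06). *Pfkl* rose 1.95-fold with RSM (0.96, SE 0.17, FDR = 0.000147), from 39.2 to 63.9 CPM to 101 to 108 CPM, and passed the 2-fold demand without replicate 1 (1.08) or replicate 3 (1.02) and with library size only (1.01). With HC3 it measured 0.16 (SE 0.17). *Hk2* measured 0.21 with RSM (SE 0.09, FDR = 0.0831), passing with same-numbered pairs (FDR = 0.029) and without replicate 1 (0.38, FDR = 0.00877), and 0.06 with HC3 (SE 0.09), where its sign turned without replicate 2 (-0.02).

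The lower pathway split by inhibitor in M[IL-4]. With RSM, *Eno1* rose 1.37-fold (log2 fold change 0.45, SE 0.07), *Ldha* 1.31-fold (0.39, SE 0.06) and *Aldoa* 1.21-fold (0.28, SE 0.06). With HC3, *Pkm* fell by 0.35 (SE 0.06), *Pgk1* by 0.28 (SE 0.07) and *Ldha* by 0.17 (SE 0.06) on the log2 scale. The *Pgk1* call with HC3 was lost without replicate 3 (FDR = 0.056), and the *Ldha* call without replicate 1 (FDR = 0.155) or replicate 3 (FDR = 0.256). The *Ldha* call was also lost in a fit of only the compared groups (FDR = 0.135), with library size only (FDR = 0.158) and without the count filter (FDR = 0.0826).

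The values that did not pass were small. *Pkm* measured -0.11 with RSM (SE 0.06, FDR = 0.116), which passed with same-numbered pairs (FDR = 0.0219) and in DESeq2, and *Pgk1* measured 0.09 (SE 0.07). *Eno1* with HC3 was at -0.08 (SE 0.07) and *Aldoa* at 0.03 (SE 0.06), a value of -0.000388 without replicate 1.

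*Pdk1* fell with both inhibitors in M[IL-4]. The libraries read 68.3, 84.2 and 76.3 CPM in Veh, 29.9, 29.1 and 30.5 CPM with HC3 and 59.4, 60.4 and 56.1 CPM with RSM, without overlap. The fall was 2.56-fold with HC3 (log2 fold change -1.35, SE 0.08, FDR = 1.08e-10) and 1.30-fold with RSM (-0.38, SE 0.07, FDR = 0.000414). Macrophage markers summed to 12729 to 12989 CPM in Veh M[IL-4], 8211 to 9270 CPM with HC3 and 11554 to 13816 CPM with RSM, and stromal markers to 849.7 to 1774, 1526 to 2757 and 1194 to 2293 CPM. Of the 9 tested stromal markers, 1 was at least 2-fold higher (FDR under 0.05) with HC3 (4.72% of all genes). With RSM 1 was higher (5.05% of all genes) and 1 lower (6.0%). The part of these levels in the members' values was not tested.

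The response to IL-4 itself was asked of each treatment. In vehicle, IL-4 raised 5 members and lowered *Slc16a3*, where 16.1% of all tested genes rose and 14.9% fell. The 5 were *Ldha* (1.71-fold, log2 fold change 0.77, SE 0.06), *Slc2a1* (1.61-fold, 0.69, SE 0.08), *Pgk1* (1.52-fold, 0.60, SE 0.07), *Hk2* (1.48-fold, 0.57, SE 0.10) and *Eno1* (1.35-fold, 0.43, SE 0.07), and no member changed 2-fold (2.83% of all genes higher, 3.83% lower). Libraries did not overlap for 6 members higher and 1 lower (21.1% and 19.7% of all genes). *Hk2* was at 0.37 (FDR = 0.0156) without replicate 1. The exporter *Slc16a3* fell by 0.54 (SE 0.12, FDR = 0.0025) on the log2 scale, a call lost without replicate 3 (FDR = 0.0633), whereas *Slc2a1* rose. Of the related monocarboxylate transporters, *Slc16a1* averaged 3.91 CPM per kb in Veh M[0] and 6.78 in Veh M[IL-4]. *Slc16a7* averaged 4.45 and 3.62 CPM per kb. *Pfkl* measured -0.38 (SE 0.17, FDR = 0.0965), *Aldoa* 0.16 (SE 0.06, FDR = 0.054), *Pdk1* 0.14 (SE 0.07) and *Pkm* 0.09 (SE 0.06). With 1 block for the replicate number over all libraries, *Pfkl* (FDR = 0.0155) and *Aldoa* (FDR = 0.0359) passed, and so did *Pfkl* without the count filter and *Aldoa* in DESeq2.

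Under the inhibitors few members rose with IL-4. With HC3, *Ldha* rose 1.37-fold (log2 fold change 0.46, SE 0.06, FDR = 2.19e-05), while *Slc16a3*, *Pfkl*, *Pdk1* and *Pkm* fell, where 7.22% of all genes rose and 7.48% fell. No member changed 2-fold (1.82% of all genes higher, 2.14% lower), and libraries did not overlap for 1 member higher and 7 lower (14.4% and 16.1% of all genes). Of these falls, *Slc16a3* was the largest (-0.84, SE 0.12, FDR = 5.93e-05). *Pfkl* (-0.59, SE 0.17) did not pass without replicate 1 (FDR = 0.0961) or 3 (FDR = 0.179), *Pkm* (-0.22, SE 0.06) without replicate 3 (FDR = 0.241) or with only the compared groups (FDR = 0.0675), and *Pdk1* (-0.29, SE 0.08) without any 1 of the replicates (FDR = 0.0655, 0.0898 and 0.127). Without the count filter neither *Pkm* (FDR = 0.0517) nor *Pdk1* (FDR = 0.0523) passed. *Aldoa* at -0.18 (SE 0.06, FDR = 0.0666) and *Eno1* at -0.20 (SE 0.07, FDR = 0.0608) did not pass, and both did with 1 block for the replicate number over all libraries (FDR = 0.0395 and 0.0087), in DESeq2 and with library size only.

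With RSM, IL-4 lowered 9 members and raised *Ldha*, where 6.74% of all genes fell and 8.79% rose. No member changed 2-fold (2.45% of all genes higher, 1.81% lower), and libraries overlapped for none (16.7% of all genes higher, 15.0% lower). The falls ran from -0.25 for *Pgk1* (SE 0.07) to -0.73 for *Slc16a3* (SE 0.12), with *Hk2* at -0.61 (SE 0.09, FDR = 7.74e-05) and *Pkm* at -0.47 (SE 0.06, FDR = 4.04e-06). *Ldha* rose 1.14-fold (0.19, SE 0.06, FDR = 0.0332), a call lost without any 1 of the replicates (FDR = 0.0904, 0.069 and 0.412) and in 4 other settings. Without replicate 3 only 4 of the 9 falls passed. *Slc2a1* lost its call without any 1 of the replicates (FDR = 0.0953, 0.101 and 0.0502), *Pfkl* and *Pgk1* without replicate 1 (FDR = 0.0686 and 0.0682) or replicate 3 (FDR = 0.163 and 0.141), and *Aldoa* and *Eno1* without replicate 3 (FDR = 0.0853 and 0.0502).

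**Figure D3:**
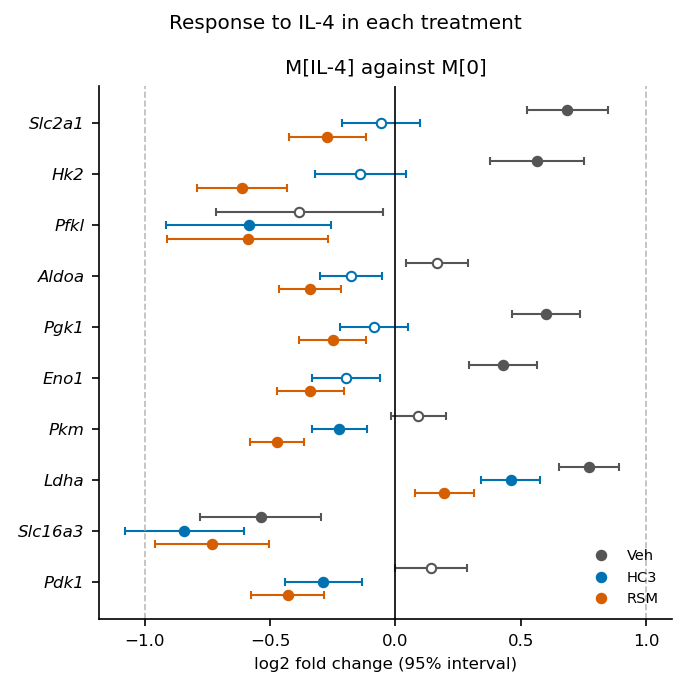
Log2 fold change of each member in M[IL-4] against M[0] with vehicle (grey), HC3 (blue) and RSM (orange), with bars for the 95% interval and filled points for FDR under 0.05. The vehicle point lies to the right of the other two for every member, and *Ldha* is the member with all 3 points right of 0 (0.77, 0.46 and 0.19).

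Whether the response to IL-4 differed between treatments was tested as the interaction, the change with IL-4 under an inhibitor minus that under vehicle. All 10 estimates were below 0 for HC3, and 8 passed, where 3.4% of all genes did so downward and 3.08% upward. For RSM all 10 were again below 0, with 8 passing against 4.14% downward and 5.05% upward, though both sets of estimates use the same vehicle libraries. None passed with the 2-fold demand for HC3 (0.481% of all genes upward, 0.761% downward), and *Hk2* did for RSM (1.22% upward, 0.921% downward). *Hk2* had the lowest estimate with RSM (-1.18, SE 0.13, FDR = 1.51e-05), and it was -0.94 without replicate 1. *Slc2a1* followed at -0.96 (SE 0.11, FDR = 2.47e-05) and reached -1.08 without replicate 3, and *Slc2a1* was also lowest with HC3 (-0.74, SE 0.11, FDR = 0.000518).

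*Slc16a3* and *Pfkl* did not pass in either interaction, with -0.30 (SE 0.17) and -0.20 (SE 0.24) for HC3 and -0.19 (SE 0.17) and -0.21 (SE 0.24) for RSM. Several HC3 calls were lost when a replicate was left out. Those that still passed were 4 without replicate 1, 5 without replicate 2 and *Slc2a1* alone without replicate 3. With RSM, *Aldoa* (FDR = 0.0959) and *Pdk1* (FDR = 0.0918) were lost without replicate 3.

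HC3 and RSM were compared directly at the doses used. In M[0] all 10 members were lower with HC3 than with RSM, where 7.43% of all genes were lower and 6.18% higher, and the libraries of the 2 groups overlapped for none of them (16.1% of all genes were lower without overlap, 15.5% higher). The gap was widest for *Slc16a3* (log2 fold change -1.20, SE 0.12, FDR = 8.36e-07) and *Pdk1* (-1.12, SE 0.08, FDR = 1.04e-08), which were the 2 beyond 2-fold (1.44% of all genes lower, 1.61% higher). *Ldha* followed at -0.83 (SE 0.06) and *Pfkl* at -0.81 (SE 0.17), and *Slc2a1* was the closest at -0.39 (SE 0.08, FDR = 0.00205).

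In M[IL-4], 8 of the 10 were lower with HC3, against 8.03% of all genes lower and 4.97% higher. *Slc16a3* alone was beyond 2-fold (1.59% of all genes lower, 1.21% higher), and all 10 were lower without overlap (15.5% of all genes lower, 13.0% higher). *Slc16a3* differed by -1.31 (SE 0.12, FDR = 3.83e-07), *Pdk1* by -0.98 (SE 0.08, FDR = 5.87e-08) and *Pfkl* by -0.80 (SE 0.17, FDR = 0.00289), and *Pdk1* passed the 2-fold demand without replicate 3 (-1.02). *Slc2a1* at -0.18 (95% interval -0.33 to -0.02, FDR = 0.168) and *Hk2* at -0.15 (-0.33 to 0.03, FDR = 0.354) did not pass, and *Slc2a1* did with same-numbered pairs (FDR = 0.0307). *Aldoa* (FDR = 0.153) and *Pkm* (FDR = 0.0861) lost the call without replicate 2, and *Aldoa* (FDR = 0.245), *Pgk1* (FDR = 0.0964) and *Pkm* (FDR = 0.195) without replicate 3.

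The members were next set against the related genes that can serve the same step, as shares of the summed CPM per kb of the tested genes of a family, which were not tested. Among the glucose transporters *Slc2a1*, *Slc2a3*, *Slc2a6* and *Slc2a8*, *Slc2a1* held 42.5% ± 2.78 in Veh M[0], 72.4% ± 2.16 with HC3 and 78.4% ± 2.17 with RSM. In M[IL-4] it held 42.7% ± 1.31, 63.6% ± 0.542 and 67.3% ± 2.18. *Slc2a6*, a transporter of lysosomal membranes, rose with IL-4 in vehicle (log2 fold change 1.44, SE 0.14), as *Slc2a1* did, but in M[IL-4] fell by 1.34 (SE 0.14) with RSM and by 1.03 (SE 0.14) with HC3. *Slc2a8*, an intracellular transporter, fell in M[0] by 0.63 (SE 0.16) with HC3 and by 0.73 (SE 0.16) with RSM. The fall of *Slc2a6* with HC3 in M[IL-4] dropped below 2-fold without replicate 2 or with library size only. *Slc2a3* (GLUT3) fell with IL-4 in vehicle (-0.79, SE 0.16) and measured 0.02 (SE 0.15) with HC3 and -0.09 (SE 0.15) with RSM in M[0].

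*Hk2* remained the smallest hexokinase share in M[0] with vehicle, 5.91% ± 0.746 against 80.2% ± 2.18 for *Hk3*. With RSM it reached 15.6% ± 0.998, beside 15.1% ± 0.551 for *Hk1*. The merged exons of *Hk1* (8532 bp) are far longer than its longest coding transcript (4278 bp). For *Hk2* these lengths are close (5969 and 5513 bp), so the order of *Hk1* and *Hk2* depends on the length used. In the 3 M[IL-4] groups *Hk2* held 5.07% to 6.82%. *Hk1* did not pass in any of the 4 comparisons with vehicle (log2 fold changes of -0.04 to 0.11), whereas *Hk3* rose with IL-4 in vehicle (0.72, SE 0.07).

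*Pfkl* held 42.1% ± 5.14 of the phosphofructokinases in Veh M[0] and 60.8% ± 0.841 with RSM. With IL-4 the platelet type, *Pfkp*, led in vehicle at 59.98% ± 3.96, having risen by 1.11 (SE 0.05, FDR = 1.18e-11), and *Pfkl* was at 26.04% ± 5.24 there and at 47.8% ± 1.53 with RSM. The muscle type, *Pfkm*, fell in M[0] with HC3 (-0.44, SE 0.10) and with RSM (-0.37, SE 0.10, lost without replicate 2). *Aldoa* and *Ldha* held mean shares of 97.2% to 99.6% of their families, and *Eno1* held 95.3% to 97.96% beside *Eno2* and *Eno3*. The neuronal enolase *Eno2* rose with HC3 in M[0] (0.54, SE 0.18), a call lost without replicate 1 or 3 and in a fit of only the compared groups, and the muscle enolase *Eno3* rose there by 0.86 (SE 0.17).

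*Slc16a3*, *Slc16a1* (MCT1) and *Slc16a7* (MCT2) were the monocarboxylate transporters compared. *Slc16a3* held 52.4% ± 4.71 in Veh M[0], 56.1% ± 4.12 with HC3 and 73.5% ± 2.50 with RSM, and in M[IL-4] 38.0% ± 6.00, 39.5% ± 5.37 and 62.8% ± 1.39. In M[0] *Slc16a1* rose with HC3 (log2 fold change 1.06, SE 0.11) and RSM (1.00, SE 0.11), whereas *Slc16a7* fell with HC3 (-0.58, SE 0.11) and measured -0.18 (SE 0.10) with RSM. *Bsg* (basigin), the chaperone of MCT1 and MCT4, measured 0.24 (SE 0.08) and 0.31 (SE 0.08), calls that were both lost without replicate 1, and that with HC3 also without replicate 3. Of the 4 kinases of pyruvate dehydrogenase, *Pdk1* held 37.6% ± 3.79 in Veh M[0] and 22.9% ± 1.80 with HC3, while *Pdk4* held 15.5% ± 6.13 and 33.7% ± 3.28. *Pdk4* rose with HC3 in M[0] (0.89, SE 0.28) and M[IL-4] (0.89, SE 0.30), calls lost without replicate 3 in both and in M[IL-4] also without replicate 1, and *Pdk2* fell in M[0] with HC3 (-0.75, SE 0.14) and RSM (-0.65, SE 0.14). *Pdk3* measured 0.01 (SE 0.11) and -0.16 (SE 0.11) there.

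**Figure D4:**
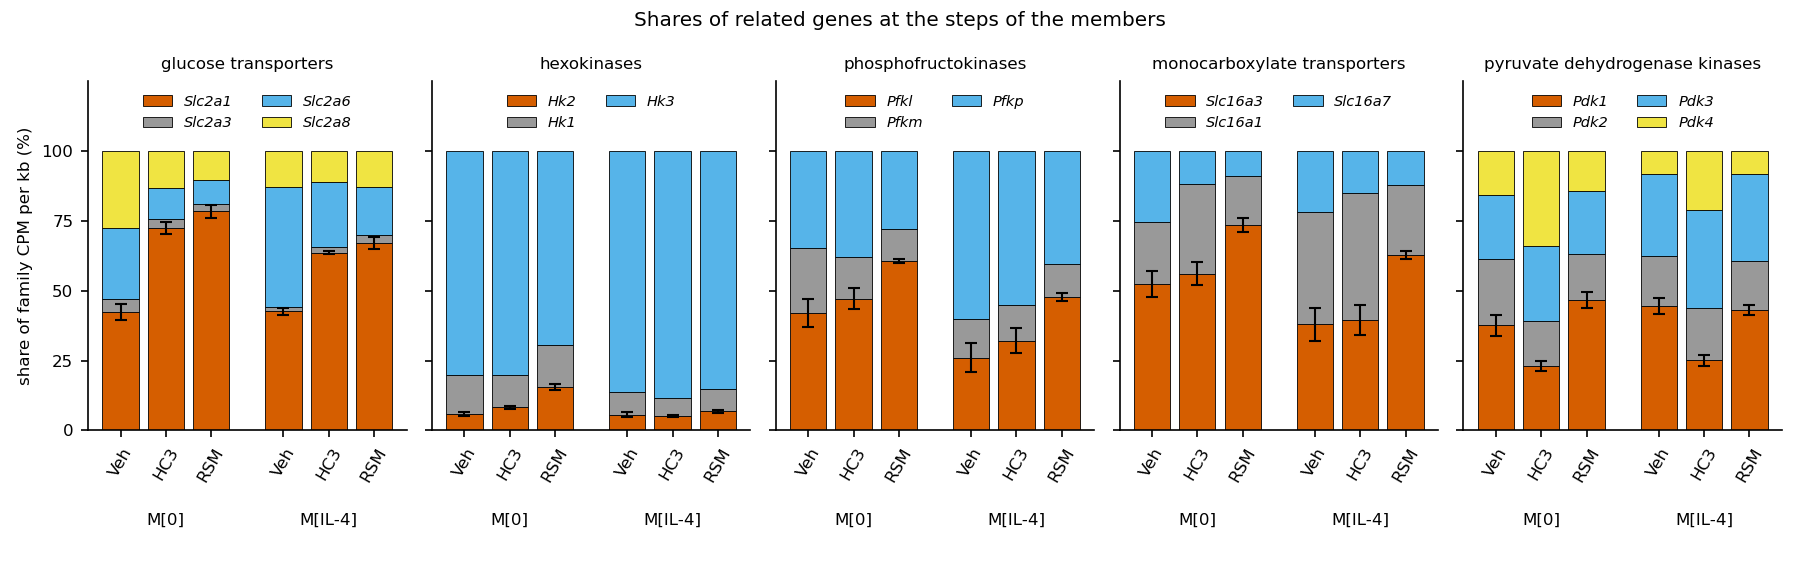
Share of each related gene in the summed CPM per kb of its family, in percent, with means of 3 libraries stacked and bars of 1 SD on the member (orange). The *Slc2a1* share is larger with either inhibitor than with vehicle, the *Hk3* share is the largest of the hexokinases in all 6 groups, and the *Pdk1* share is smallest with HC3.

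The remaining glycolytic genes, a list of 28 with 24 tested, did not move together. With RSM in M[0], 9 rose and 5 fell (median log2 fold change 0.03), and with HC3 9 rose and 8 fell (median -0.01). Beside this and the next lists, 20.5% of all tested genes rose and 20.7% fell with RSM in M[0], and 22.6% and 21.5% with HC3. In M[IL-4] these shares were 20.1% and 18.5% with RSM and 18.9% and 19.9% with HC3. With IL-4 in vehicle they were 16.1% and 14.9%. The enzymes of the lower pathway went with the members. *Gapdh* rose by 0.99 (SE 0.05) with RSM and 0.34 (SE 0.05) with HC3, *Pgam1* by 1.13 (SE 0.08) and 0.77 (SE 0.08), and *Tpi1* by 0.78 (SE 0.06) with RSM while measuring 0.03 (SE 0.06) with HC3. *Gpi1* rose with RSM (0.39, SE 0.05) and fell with HC3 (-0.18, SE 0.05), the latter lost without replicate 2 or 3 and with no count filter.

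The bifunctional enzymes that set fructose 2,6-bisphosphate, an activator of phosphofructokinase, split. *Pfkfb3* rose with HC3 (0.88, SE 0.09) and RSM (0.80, SE 0.09) in M[0], and *Pfkfb4* fell (-0.98, SE 0.07 and -0.64, SE 0.07). *Aldoc* fell with HC3 in M[0] (-1.11, SE 0.17) and M[IL-4] (-1.01, SE 0.19, below 2-fold in 3 alternatives) and with IL-4 in vehicle (-1.18, SE 0.17). In M[IL-4], 7 of the list rose and 4 fell with RSM and 6 rose and 7 fell with HC3, among them *Ldhb*, which measured -0.96 (SE 0.19) with RSM and -0.65 (SE 0.19) with HC3, the latter lost without replicate 2 or 3.

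Of 25 tested genes of the HIF pathway and of HIF targets other than the members, which again include *Pfkfb3* and *Pfkfb4*, 16 rose and 2 fell with RSM in M[0] and 11 rose and 3 fell with HC3, with medians of 0.46 and 0.21. In M[IL-4], 15 rose and 1 fell with RSM and 10 rose and 4 fell with HC3. At least 2-fold rises numbered 8, 5, 7 and 5 in these comparisons, where 5.05%, 5.93%, 5.05% and 4.72% of all genes rose that far. *Ero1l*, an oxidase of the endoplasmic reticulum, rose by 2.49 (SE 0.09) with RSM and 1.84 (SE 0.09) with HC3 in M[0], and by 2.26 (SE 0.09) and 1.95 (SE 0.09) in M[IL-4]. *Vegfa*, the angiogenic growth factor, rose by 2.05 (SE 0.10), 1.38 (SE 0.10), 1.98 (SE 0.10) and 1.33 (SE 0.10) in the same order. *Egln3*, a prolyl hydroxylase that HIF induces, rose by 2.41 (SE 0.24) and 1.28 (SE 0.24) in M[0]. *Bnip3*, a mitophagy receptor, rose by 1.15 (SE 0.11) with RSM in M[IL-4]. *Car9*, also of this list, averaged 8.16 CPM in Veh M[0], 6.47 CPM with HC3 and 5.27 CPM with RSM. Whether HIF acted on the genes of this list was not tested.

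*Hif1a* itself, which encodes the oxygen-regulated subunit, rose in M[0] by 1.11 (SE 0.08) with RSM and 0.49 (SE 0.08) with HC3, and in M[IL-4] by 0.79 (SE 0.08) and 0.28 (SE 0.08), the last of these lost without replicate 3. Its protein was not measured here. *P4ha2*, a collagen prolyl hydroxylase subunit, rose by 1.62 (SE 0.17) and 1.32 (SE 0.17) in M[0] and by 1.30 (SE 0.17) and 1.01 (SE 0.18, below 2-fold without replicate 3, in DESeq2 and with RLE factors) in M[IL-4]. *Ankrd37* fell with HC3 (-1.25, SE 0.29 in M[0], lost without replicate 3, and -1.73, SE 0.29 in M[IL-4]) and measured 0.36 (SE 0.26) and 0.03 (SE 0.25) with RSM, and so, like *Pdk1*, was lower with HC3 than vehicle. The vascular peptide gene *Adm* rose in all 4 comparisons, from 1.40 (SE 0.51) to 2.23 (SE 0.50), of which the HC3 value in M[0] alone kept its call without replicate 3. With IL-4 in vehicle, 2 of the list rose and 6 fell, with *Ndrg1* (-1.17, SE 0.08) and *Egln3* (-1.68, SE 0.30) beyond 2-fold.

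Of 14 tested genes of gluconeogenesis and glycogen, 9 rose and 1 fell with RSM in M[0] and 8 rose and 2 fell with HC3, and in M[IL-4] 7 rose and 1 fell with RSM and 6 rose and 2 fell with HC3. The glycogen branching enzyme *Gbe1* rose by 1.28 (SE 0.07) with RSM and 1.12 (SE 0.07) with HC3 in M[0], the glycogen synthase *Gys1* by 1.16 (SE 0.11) and 0.75 (SE 0.11), and the primer protein glycogenin, *Gyg*, by 0.49 (SE 0.10) and 1.08 (SE 0.10). *Pck2*, the mitochondrial phosphoenolpyruvate carboxykinase, rose by 1.09 (SE 0.10, below 2-fold without replicate 1) and 0.96 (SE 0.10). *Fbp1*, *Fbp2*, *Pck1* and *G6pc*, enzymes specific to gluconeogenesis, did not pass the count filter.

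The pentose phosphate pathway had 11 tested genes. In M[0] 5 rose and 2 fell with RSM, and 5 rose and 1 fell with HC3. Its first enzyme *G6pdx* fell in all 4 comparisons, by 0.85 (SE 0.06) with RSM and 0.68 (SE 0.06) with HC3 in M[0] and by 1.21 (SE 0.06) and 0.74 (SE 0.06) in M[IL-4]. *Prps1*, which makes phosphoribosyl pyrophosphate, rose with IL-4 in vehicle (1.20, SE 0.12). Of 14 tested genes for entry of pyruvate into mitochondria, 9 rose and 2 fell with HC3 in M[0], 4 rose and 1 fell with RSM, and none changed 2-fold with an inhibitor. In vehicle *Pdk4* fell with IL-4 (-1.09, SE 0.30), a call lost without replicate 1 or 3.

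Among 15 tested regulators outside the HIF pathway, 3 rose and 3 fell with HC3 in M[0] and 2 rose and 3 fell with RSM. *Txnip*, an inhibitor of glucose uptake, fell by 1.11 (SE 0.09) with HC3 and by 0.58 (SE 0.08) with RSM in M[0], while its relative *Arrdc4* rose by 0.87 (SE 0.08) and 1.21 (SE 0.08). *Ppargc1b* and *Myc* rose with IL-4 in vehicle, by 2.45 (SE 0.21) and 1.52 (SE 0.16). *Ppargc1b*, a coactivator of mitochondrial genes, fell in M[IL-4] with HC3 (-1.09, SE 0.19, below 2-fold without replicate 2) and RSM (-1.70, SE 0.20).

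**Figure D5:**
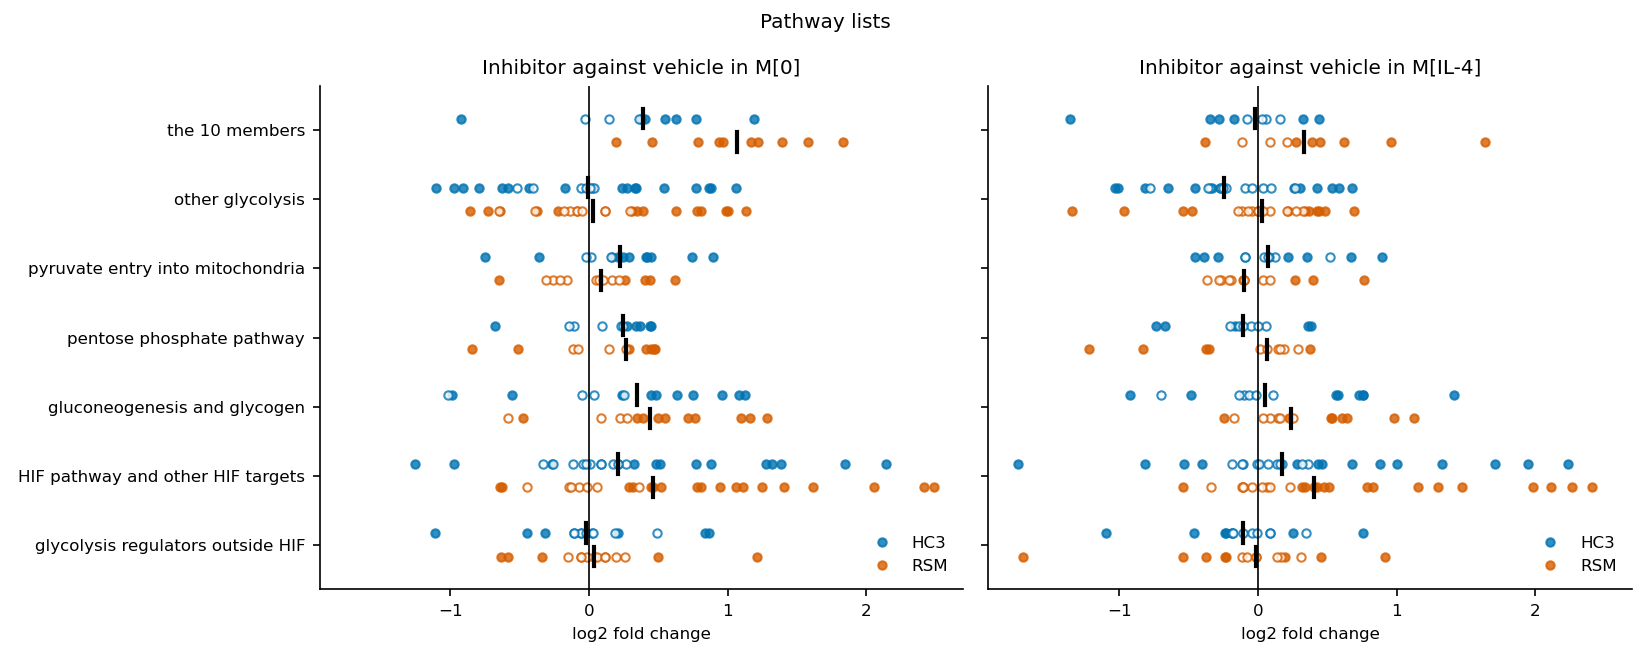
Log2 fold change of each tested gene with HC3 (blue) or RSM (orange) against vehicle, by list, with filled points for FDR under 0.05 and black bars for the list's median. The median of the members with RSM in M[0] is 1.07, and those of the other lists lie between -0.24 and 0.46 in the 4 comparisons.

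Likeness among the members was described over the 18 libraries, which share their groups, so the correlations carry no test. Against the members' mean centred log2 CPM, *Eno1* (r = 0.98), *Aldoa* (0.96) and *Slc16a3* (0.91) were closest, *Ldha* was at 0.71 and *Pdk1* was farthest at 0.37. Between single members r ran from -0.21 (*Slc2a1* and *Pdk1*) to 0.97 (*Pfkl* and *Slc16a3*).

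Outside the members, the 8 tested genes most like this profile were *Gapdh* (r = 0.98), *Pgm1* (0.97), *Bst1* (0.94), *P4ha1* (0.93), *Tpi1* (0.93), *Cth* (0.92), *Grhpr* (0.92) and *Adm2* (0.91). *Gapdh* and *Tpi1* are glycolytic enzymes, and *P4ha1* and *Pgm1* stand in the HIF and glycogen lists. *Gapdh* averaged 866 CPM in Veh M[0] and 1718 CPM in RSM M[0]. *Bst1*, an ectoenzyme of NAD metabolism, averaged 3.89 CPM in Veh M[0] and 28.7 CPM in RSM M[0], and *Cth* and *Adm2* were below 1 CPM on average in every vehicle and HC3 group.

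The counting could mix some members with other genes. Near-identical sequence (at least 98% identity over 100 bp or more) in other annotated genes covered 85.6% of the *Eno1* transcript, 68.8% of *Pgk1*, 65.5% of *Pkm* and 3.31% of *Slc2a1*, and the copies themselves had at most 174, 9, 237 and 11 counts per library. A gene on the opposite strand overlapped 3.00% of the *Slc2a1* exons and 0.859% of *Aldoa*, and another on the same strand 15.3% of *Pkm*. The *Eno1*, *Pgk1* and *Pkm* levels are therefore less certain than those of *Hk2*, *Pfkl*, *Ldha*, *Slc16a3* and *Pdk1*, for which no such copy was found. Of the related genes, *Gapdh* (88.0%), *Ldhb* (76.8%), *Gpi1* (45.5%) and *Pgam1* (43.1%) had such copies too.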

How the data were processed

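Tables of unnormalized counts per gene were deposited by the authors for 18 libraries of poly-T-selected mRNA. The authors' methods name fastp for adapters, STAR in local mode against GRCm38 for paired reads (pairs kept by mapping quality), Picard for marking duplicates, which were retained, and featureCounts for exons. Their versions, the annotation release and the strand setting are not given in the sources used here. The labels gave the groups and name 3 mice, and 0 columns were left unused.

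Symbols, positions and exons came from GENCODE vM21 (GRCm38), with 55144 of 55385 genes matched. The count filter (10 counts or more in 2 or more libraries) left 14979 genes. In edgeR 4.0.16 (R 4.3.3), all libraries were fitted together with TMM factors by quasi-likelihood, one mean per group without a block, for 11 comparisons, and FDR is the Benjamini-Hochberg adjusted p over all genes. Calls needed an FDR under 0.05, and for the fold demand a change of 1 log2 unit in either direction. For a single gene, exact permutation of 3 and 3 libraries gives no p below 0.1. At this depth 3 counts are 0.153 to 0.176 CPM, for counting error only.

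Named genes are the 10 members, a set list of their relatives and neighbouring steps with *Hif1a*, up to 3 genes of lowest FDR per direction and list among those called with the fold demand in an inhibitor comparison or in M[IL-4] against M[0] with vehicle, and the 8 genes with the highest correlation with the members. Further list genes were named after their values were seen (*Adm*, *Car9*, *Slc2a8*, *Eno3*, *Slc16a7*, *Fbp1*, *Fbp2*, *Pck1*, *G6pc* and the single markers named). The members, the 6 pathway lists (other glycolysis, pyruvate entry, pentose phosphate, gluconeogenesis and glycogen, HIF, other regulators) and the marker lists were chosen with earlier results of these data known.

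Same-numbered libraries of 1 polarization had residual correlations of 0.110 to 0.372, above 0.1 in 18 of 18 pairs, so the numbers pair libraries within a polarization, and a block of number within polarization was an alternative. Across polarizations 5 of 9 pairs with the same treatment were above 0.1. Other alternatives were 1 block over all libraries, only the compared groups, DESeq2 1.42.0, RLE factors, library size only, no count filter (29054 genes), filterByExpr (14466 genes) and leaving out each replicate number. The steps were tested on simulated data. Every pair of replicates differed by more than counting error. Near-identical transcripts were found with blastn 2.17.0, and start windows came from RefSeq. Proteins were not analysed here.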

Additional observations from a re-analysis of the deposited data

Results flagged for a closer look

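Effects that differed between naïve and IL-4-polarized cells were found for 8 members with each inhibitor, tested as the interaction in edgeR (FDR under 0.05). For HC3 the interaction, in log2 units and as the change with the inhibitor in M[IL-4] minus that in M[0], was -0.74 for *Slc2a1*, -0.71 for *Hk2*, -0.69 for *Pgk1*, -0.63 for *Eno1*, -0.43 for *Pdk1*, -0.34 for *Aldoa*, -0.32 for *Pkm* and -0.31 for *Ldha*. For RSM it was -1.18 for *Hk2*, -0.96 for *Slc2a1*, -0.85 for *Pgk1*, -0.77 for *Eno1*, -0.58 for *Ldha*, -0.57 for *Pdk1*, -0.57 for *Pkm* and -0.51 for *Aldoa*. The vehicle libraries are shared by both sets, and without replicate 3 only *Slc2a1* passed for HC3, while *Aldoa* and *Pdk1* did not pass for RSM.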

How the results depend on the processing

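Of 110 member values (10 members in 11 comparisons), 71 kept their direction and their side of the FDR threshold in every alternative that gave one, among 1180 alternative values. 66 lost a call, 23 gained one and 4 turned sign, none of which was called, namely *Pkm* with HC3 in M[0] (0.0146 with library size only), and with replicates left out *Hk2* (-0.0235 to 0.219) and *Aldoa* (-0.000388 to 0.0550) with HC3 in M[IL-4] and *Pgk1* with IL-4 under HC3 (-0.138 to 0.0227). Of the lost calls, 26 were without replicate 3.

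Counts of members that moved by more than 1.5 times were as follows. With HC3 in M[IL-4], 1 rose in a fit of only the compared groups or with RLE factors. With RSM in M[IL-4], 2 fell with the replicate block within each polarization or in DESeq2, and 2 passed the fold demand with library size only. With IL-4, 2 fell in vehicle with 1 replicate block or no count filter, 2 fell under HC3 with no count filter, and 0 rose under RSM with only the compared groups, RLE factors, library size only or no count filter. In the HC3 interaction 5 passed with only the compared groups.

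With a replicate left out, the ranges were 1 to 2 for fold calls with HC3 in M[0], 1 to 2 for rises and 2 to 4 for falls with HC3 in M[IL-4], 1 to 2 for fold calls with RSM in M[IL-4], 0 to 1 for falls in vehicle, 1 to 3 under HC3 and 4 to 8 under RSM with IL-4, 0 to 0 for rises under RSM, 5 to 8 for HC3 below RSM in M[IL-4] with 1 to 2 by fold, 1 to 5 for the HC3 interaction and 0 to 2 for fold calls in the RSM interaction. Beyond fewer samples or genes, the cause was not tested.

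The replicate block within each polarization gave no value for IL-4 against M[0], since each polarization then has its own number effects. It changed 5 calls, all given above, and the block over all libraries gained 6 and lost none. These were *Pfkl* (0.36) and *Ldha* (0.14) with HC3 in M[0], and with IL-4 *Pfkl* (-0.39) and *Aldoa* (0.16) in vehicle and *Aldoa* (-0.18) and *Eno1* (-0.20) under HC3. The labels name 3 mice but do not tie the numbers to them, so same numbers across polarizations were not taken as pairs. No scaling moved the median of all genes by over 0.1.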

Other observations

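The Ensembl gene ENSMUSG00000114515, the second to carry the symbol *Aldoa*, had 4 to 45 counts per library, so its values rest on few reads. It read 0.235 to 0.608 CPM in Veh M[0], 0.963 to 2.37 CPM with HC3 and 0.667 to 0.732 CPM with RSM, and HC3 raised it by a log2 fold change of 2.22 (SE 0.38, FDR = 0.000101) while RSM measured 0.83 (SE 0.42, FDR = 0.128). In M[IL-4] it rose by 1.85 (SE 0.38) with HC3 and 1.12 (SE 0.40) with RSM. Its HC3 libraries in M[0] lay above those with RSM (log2 fold change 1.40, SE 0.35, FDR = 0.00986), whereas the main *Aldoa* gene was lower with HC3 (-0.41, SE 0.06).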
